A study of Arabidopsis lyrata subsp. lyrata and Arabidopsis thaliana with 7 samples.

Results

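The genes described here act in meiotic recombination and in building the meiotic chromosome axis. They were taken as the *A. lyrata* gene models whose listed ortholog in the deposited annotation is 1 of 40 *A. thaliana* genes. All 40 genes matched exactly 1 model, out of 32793 models in the count table. Positions are given on the scaffolds of the *A. lyrata* reference assembly, as in the deposited annotation. They were grouped by role into double-strand break formation (10 genes), axis and cohesion (10), strand exchange (7), crossover (9) and meiotic cell cycle (4).

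The RNA came from unstressed plants grown on soil in long days. In *A. lyrata* MN47 there were 2 libraries of entire inflorescences, cut from the main stem, 1 library of vegetative shoot apices, freed of leaves, cotyledons, hypocotyl and roots, and 2 libraries of entire vegetative rosettes. A separate table holds 2 libraries of entire vegetative rosettes of *A. thaliana* Col-0. Shoot apices and rosettes were taken from young plants with few leaves, and only the inflorescences came from flowering plants and were sequenced with shorter reads. For any difference involving the inflorescences, the tissue, the stage of the plant and the read length therefore cannot be told apart. It is not given whether replicates came from separate plants, so the p-values measure only the spread between these libraries. Each library mixes many cell types, and fewer cells of a type and less RNA per cell cannot be told apart.

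Meiosis reduces the chromosome set by following 1 round of replication with 2 divisions. In its long prophase the chromatids are organised as loops along a protein axis, programmed breaks are made in the DNA, and the broken ends invade the homologous chromosome. A minority of these repair events become crossovers, which hold the homologs together until they separate. In flowering plants this happens in a small population of cells inside young anthers and ovules, whereas many of the repair and cohesion proteins involved also serve dividing somatic cells.

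The models of these genes were long and rich in introns. The first transcript had a median of 13.5 exons (range 2 to 34), against 4 over the 21854 Augustus models with an ortholog. None had a single exon, against 16.134% of those models. More than 1 transcript was annotated for 7 of 40 genes (17.5%, against 6.603%). The genes were spread over all 8 large scaffolds, with 3 to 9 on each. Only PRD2 overlapped other models, by 72 bp and 443 bp. ZYP1A and ZYP1B lie 2014 bp apart on scaffold 1 in opposite orientation, and since they are near-identical copies the division of reads between them is uncertain.

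Depth, as reads counted in models, was 28347972 and 26047279 for inflorescences, 10556736 for the shoot apex, and between 12667832 and 15981384 for the 4 rosette libraries of both species. The tissue labels were checked against marker genes. The 5 flower markers (AP1, AP3, PI, AG and SEP3) summed to 1234 and 1131 CPM (counts per 1000000 counted reads, scaled by TMM) in the inflorescences, 0.789 CPM in the shoot apex, and 6.14 and 0.727 CPM in *A. lyrata* rosettes. The 5 meristem markers summed to 99.6 and 102 CPM in the inflorescences, 115 CPM in the shoot apex and only 5.45 and 1.04 CPM in rosettes, although CLV3 had at most 3 reads in any library and WUS had 2 reads in the shoot apex. Of the 8 anther and sporocyte markers, 5 had 0 to 4 reads in the shoot apex (SPL/NZZ, DYT1, AMS, TDF1 and MS2), whereas EMS1, TPD1 and MS1 had 195, 70 and 227 reads there and were also found in rosettes.

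On the 40 genes together fell 0.0609% and 0.0550% of counted inflorescence reads, 0.0718% of those of the shoot apex, and 0.0287% and 0.0215% of those of the rosettes. Every gene had reads in both inflorescences, with a median of 305.5 and 248.5 reads per gene. Rosettes held a median of 30.0 and 25.0 reads per gene, and 2 and 1 genes had none. A floor of 3 reads corresponds to 0.0944 and 0.0986 CPM in the inflorescences, 0.215 CPM for the apex library, and 0.259 and 0.311 CPM in rosettes. Such floors cover counting error only.

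**Figure D1:**
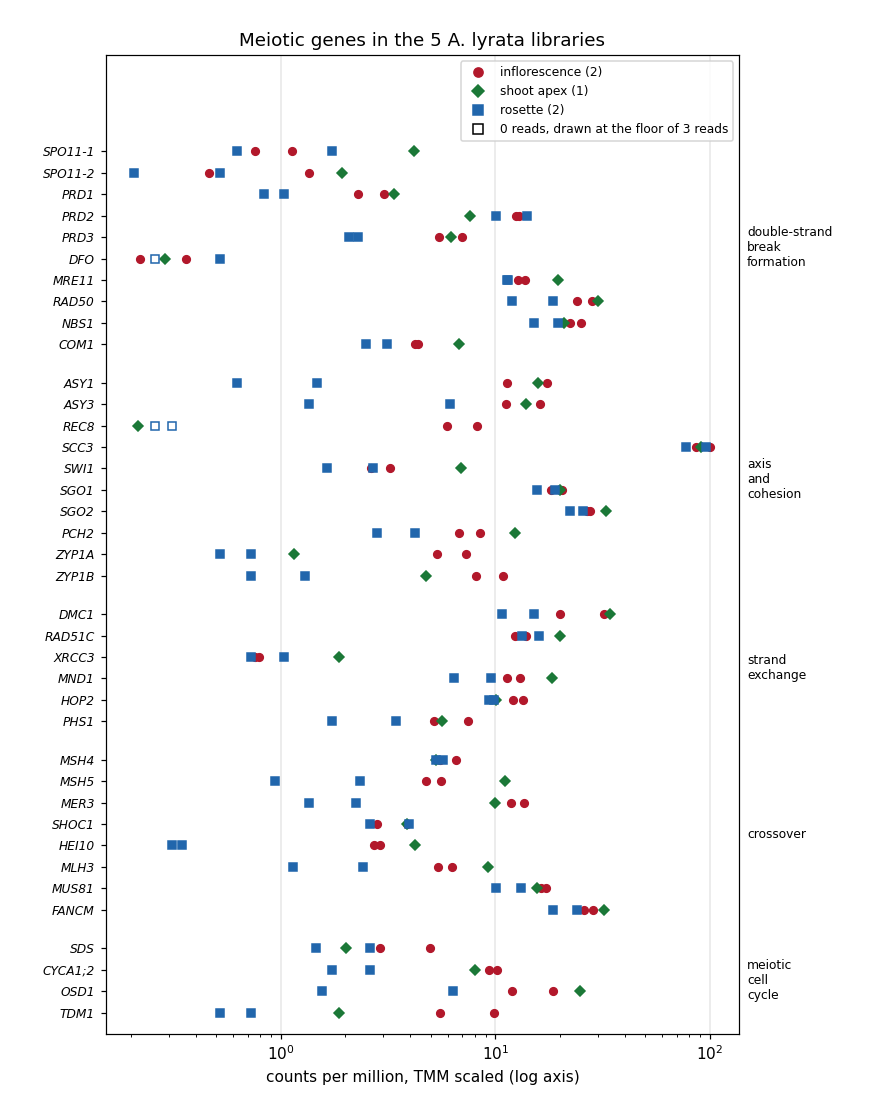
Level of 38 of the 40 genes in the 5 A. lyrata libraries, in TMM-scaled CPM on a log axis, with 1 point per library and open squares for libraries with 0 reads. The inflorescence points lie to the right of both rosette points for ASY1, ZYP1A, ZYP1B, MER3, HEI10 and TDM1, and REC8 has reads well above the floor in the inflorescences only.

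Within the inflorescence, levels per gene length (RPKM here, CPM without TMM divided by the kb of exon) spanned from 0.319 RPKM for DFO to 30.3 RPKM for SCC3, with a median of 5.48 RPKM (means of 2 libraries). SCC3, a cohesin subunit used in all dividing cells, was followed by DMC1, the meiosis-specific recombinase, at 28.8 and 18.9, and by HOP2, its accessory factor, at 17.7 and 16.5. The values of SCC3 (32.1 and 28.5) and DMC1 overlapped, and so did those of HOP2 and SGO2 (16.3 and 17.5), whereas HOP2 stayed below both DMC1 values. At the low end lay DFO, XRCC3 (0.662 in both libraries), SHOC1, PRD1, SPO11-2 and SPO11-1. SPO11-1 and SPO11-2, the catalytic subunits of the break-making complex, were thus among the least abundant of the 40 genes, at 0.867 and 0.822.

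The first comparison asked which of these genes differ between the inflorescence and the vegetative rosette. Of 39 genes that passed the filter on low counts (DFO, AT1G07060, with 0 to 11 reads per library, did not), 12 rose in the inflorescence and 0 fell by edgeR's quasi-likelihood test at an adjusted p under 0.05. Over all 25465 models tested, 17.6% rose and 16.7% fell. At an unadjusted p under 0.05, for which no share of all models is given here, 18 of the 39 were higher and 0 lower. DESeq2 called 14 higher and 0 lower, against 17.9% and 17.5% of all models. The median log2 fold change was 0.94 for the 39 genes and 0.09 for all models, and 36 of 39 values were positive, against 54.4% of all models. Both inflorescences lay above both rosettes for 29 of the 39 genes, against 43.1% of all models. Without TMM, with scaling to library totals only, the median of all models moved to 0.68. In that fit 28 of the 39 genes rose, against 38.6% of all models. The share of higher among all calls was 77.5% in place of 51.3%. Leaving out inflorescence replicate 1 or replicate 2 ended all 12 calls. Leaving out rosette replicate 1 gave 23 higher genes, while the share of all models called higher came to 31%.

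**Figure D2:**
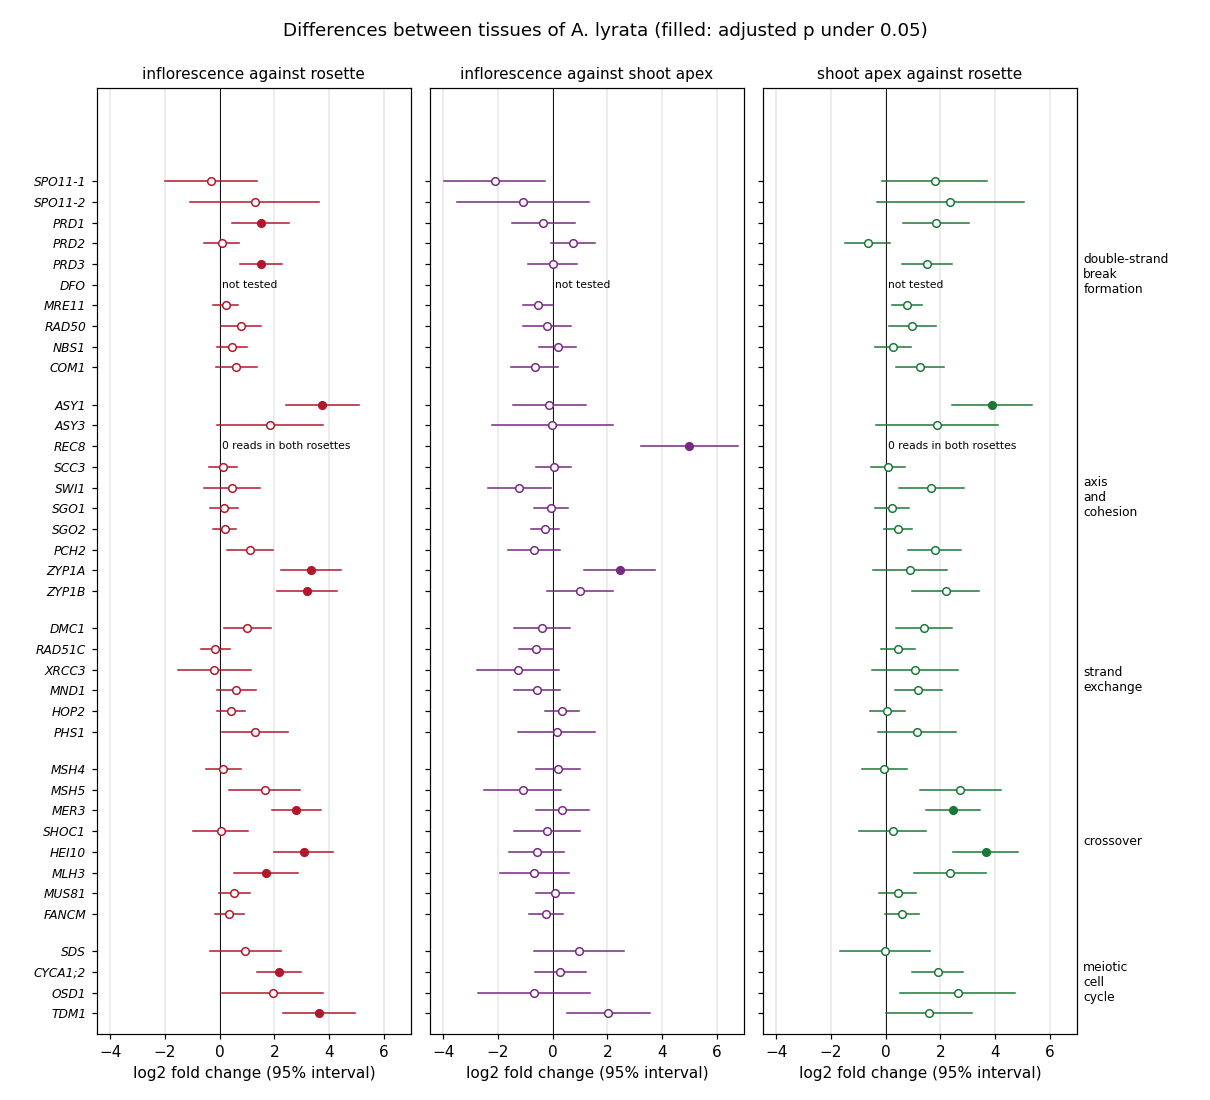
Log2 fold change with its 95% interval for 38 of the 40 genes in 3 comparisons of A. lyrata tissues, filled where the adjusted p was under 0.05. The intervals of ASY1, ZYP1A, ZYP1B, MER3, HEI10 and TDM1 lie well above 0 against the rosette, whereas against the shoot apex only REC8 and ZYP1A are filled. REC8 is not drawn against the rosettes, which had 0 reads.

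Axis and cohesion held 4 of the 12 genes that rose: REC8, ASY1, ZYP1A and ZYP1B. REC8 (AT5G05490, scaffold 6, 2001337 to 2006093), the cohesin kleisin specific to meiosis, had 190 and 251 reads (5.98 and 8.25 CPM) in the inflorescences and 0 reads in both rosettes. Against the floor of 3 reads per library it was at least 24.9-fold higher in the inflorescence (adjusted p = 0.00701 by edgeR). ASY1 (AT1G67370, scaffold 2, 12427194 to 12431912), the HORMA-domain protein of the axis, had 17.5 and 11.4 CPM in the inflorescences, against 1.47 and 0.623 CPM in the rosettes. Its log2 fold change was 3.75 ± 0.49 (SE), with an adjusted p of 0.00917 by edgeR.

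ZYP1A (AT1G22260, scaffold 1, 9778973 to 9784464) and ZYP1B (AT1G22275, scaffold 1, 9786479 to 9791962) encode the transverse filament that joins the axes of paired chromosomes. ZYP1A reached 7.30 and 5.32 CPM in the inflorescences, against 0.519 and 0.727 CPM in the rosettes, a log2 fold change of 3.34 ± 0.40 (SE). ZYP1B reached 10.8 and 8.09 CPM in the inflorescences, against 1.30 and 0.727 CPM in the rosettes, a log2 fold change of 3.20 ± 0.40. The groups did not overlap for either copy, and the adjusted p by edgeR was 0.00747 for ZYP1A and 0.00821 for ZYP1B.

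The remaining axis and cohesion genes did not pass the test. ASY3 (AT2G46980), the partner of ASY1 on the axis, had 16.2 and 11.2 CPM in the inflorescences, against 6.14 and 1.35 CPM in the rosettes. The groups did not overlap, but the rosettes differed from each other, with 71 and 13 reads, and the log2 fold change was 1.85 ± 0.72 (SE; adjusted p = 0.115 by edgeR). ASY3 passed with rosette replicate 1 left out (log2 fold change 3.33) or replicate 2 left out (1.16). PCH2 (AT4G24710), an ATPase that remodels ASY1, had 8.47 and 6.80 CPM in the inflorescences, against 4.24 and 2.80 CPM in the rosettes (adjusted p = 0.0558 by edgeR). SCC3 (AT2G47980) had 101 and 85.9 CPM in the inflorescences, against 95.5 and 77.3 CPM in the rosettes, and its groups overlapped. SGO1 (AT3G10440) and SGO2 (AT5G04320), the shugoshins that guard centromeric cohesion, and SWI1 (AT5G51330), which protects cohesion in prophase, had log2 fold changes between 0.17 and 0.44.

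Promoters were searched for the E2F site, a motif of genes expressed around DNA replication, since E2F targets include both replicative and recombination genes. The letters were TTTCCCGC or TTTGGCGC on either strand, within 250 bases before to 50 after the gene start, in the *A. thaliana* orthologs (RefSeq annotation of TAIR10.1). The site was present in 331 of 27443 protein-coding promoters (1.21%) and in 2 of the 40 genes (5.0%), both of the axis and cohesion group. It was also present in 5 of 40 other recombination and cohesion genes (12.5%) and in 2 of 11 mitotic cell cycle genes (18.2%). The flower, meristem and anther lists held it in 0 promoters. The sites of ZYP1A, which rose, and ASY3 are shown because they were the only matches among the 40 genes, with the motif in capitals. The first lies 54 bases before the ASY3 start (chr2:19304310-19304339, plus strand) and the other 16 bases before the ZYP1A start (chr1:7865265-7865294, minus strand).
ASY3: attctcaaaatTTTGGCGCcttaattcgcc
ZYP1A: ccaccgacgtgTTTGGCGCtcaactttatt
A match is a description of these letters only, and promoters of *A. lyrata* were not analysed here.

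Among the genes of double-strand break formation, PRD1 (AT4G14180, scaffold 7, 14302273 to 14307567) and PRD3 (AT1G01690, scaffold 1, 222315 to 225811) rose. Both encode proteins needed for SPO11 to act. PRD3 had 6.95 and 5.49 CPM in the inflorescences, against 2.07 and 2.28 CPM in the rosettes, a log2 fold change of 1.51 ± 0.29 (SE; adjusted p = 0.0223 by edgeR). PRD1 had 3.02 and 2.30 CPM in the inflorescences, against 1.04 and 0.830 CPM in the rosettes. Its adjusted p of 0.0477 by edgeR was the closest to the threshold, and PRD1 lost its call in 7 of 11 alternatives, among them DESeq2 and the fit without rosette replicate 2.

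SPO11-1 (AT3G13170) itself had 1.13 and 0.756 CPM in the inflorescences, against 1.73 and 0.623 CPM in the rosettes, where it rested on 20 and 6 reads. The groups overlapped, and the 95% interval of the log2 fold change ran from -2.02 to 1.36. SPO11-2 (AT1G63990) had 43 and 14 reads in the inflorescences, against 6 and 2 reads in the rosettes, with an interval from -1.096 to 3.65. PRD2 (AT5G57880), whose model overlaps others, so that reads in the overlap are uncertain, had 12.5 and 12.9 CPM in the inflorescences, against 10.1 and 14.0 CPM in the rosettes. Its rosette values bracketed those of the inflorescences. MRE11 (AT5G54260), RAD50 (AT2G31970) and NBS1 (AT3G02680), which form the complex that trims DNA ends in somatic and meiotic cells, and COM1 (AT3G52115), its cofactor, had log2 fold changes of 0.22, 0.77, 0.44 and 0.61, and none passed the test.

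In strand exchange, DMC1 (AT3G22880) had 31.9 and 20.1 CPM in the inflorescences, against 15.1 and 10.7 CPM in the rosettes. The groups did not overlap, but the log2 fold change of 1.01 ± 0.32 did not pass (adjusted p = 0.0759 by edgeR, range of adjusted p over the alternatives 0.0251 to 0.381, under 0.05 with library totals only, DESeq2, the replicate block and without rosette replicate 1). Rosettes held 175 and 103 reads of a gene described as specific to meiosis. PHS1 (AT1G10710), known in maize for homolog pairing, had 7.43 and 5.19 CPM in the inflorescences, against 1.73 and 3.43 CPM in the rosettes (adjusted p = 0.0886 by edgeR). MND1 (AT4G29170) and HOP2 (AT1G13330), which act as a pair with DMC1, had log2 fold changes of 0.61 and 0.41. RAD51C (AT2G45280) and XRCC3 (AT5G57450), which form a complex, lay at -0.16 and -0.20, with overlapping groups.

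Among the crossover genes, MER3 (AT3G27730, scaffold 5, 4035235 to 4041913), HEI10 (AT1G53490, scaffold 1, 28574539 to 28577310) and MLH3 (AT4G35520, scaffold 7, 2309191 to 2315663) rose. MER3, a DNA helicase of the main crossover pathway, had 13.6 and 11.8 CPM in the inflorescences, against 2.25 and 1.35 CPM in the rosettes, a log2 fold change of 2.81 ± 0.33 (SE; adjusted p = 0.00696 by edgeR). HEI10, a ubiquitin ligase that marks crossover sites, had 92 and 83 reads in the inflorescences and 4 and 3 reads in the rosettes. Its log2 fold change was 3.07 ± 0.40 (adjusted p = 0.00899 by edgeR). MLH3 had 6.26 and 5.39 CPM in the inflorescences, against 2.42 and 1.14 CPM in the rosettes, a log2 fold change of 1.69 ± 0.43 (adjusted p = 0.0446 by edgeR).

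MSH5 (AT3G20475) and MSH4 (AT4G17380) are the subunits of a clamp on recombination intermediates. MSH5 had 5.60 and 4.73 CPM in the inflorescences, against 2.33 and 0.934 CPM in the rosettes (adjusted p = 0.0637 by edgeR), whereas MSH4 had 6.55 and 5.52 CPM in the inflorescences, against 5.27 and 5.71 CPM in the rosettes. The difference between these partners was not tested. SHOC1 (AT5G52290), a protein of the same pathway related to XPF, had 3.87 and 2.79 CPM in the inflorescences, against 2.59 and 3.94 CPM in the rosettes. MUS81 (AT4G30870), a nuclease of the alternative pathway, and FANCM (AT1G35530), a helicase that limits crossovers, had log2 fold changes of 0.53 and 0.35.

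Of the 4 meiotic cell cycle genes, TDM1 (AT4G20900, scaffold 7, 9554845 to 9556799) and CYCA1;2 (AT1G77390, scaffold 2, 17622276 to 17624747) rose. TDM1, needed to leave meiosis after the second division, had 9.88 and 5.52 CPM in the inflorescences, against 0.519 and 0.727 CPM in the rosettes. Its log2 fold change was 3.63 ± 0.49 (SE; adjusted p = 0.00967 by edgeR). CYCA1;2, the A-type cyclin also called TAM, had 9.35 and 10.2 CPM in the inflorescences, against 1.73 and 2.59 CPM in the rosettes, a log2 fold change of 2.18 ± 0.30 (adjusted p = 0.0101 by edgeR). OSD1 (AT3G57860), an inhibitor of the anaphase-promoting complex, had 18.5 and 11.96 CPM in the inflorescences, against 6.31 and 1.56 CPM in the rosettes (adjusted p = 0.0949 by edgeR). SDS (AT1G14750), a cyclin-like protein of meiotic prophase, had 4.94 and 2.89 CPM in the inflorescences, against 2.59 and 1.45 CPM in the rosettes, and its adjusted p was 0.198.

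The inflorescence was next set against the vegetative shoot apex, which has no anthers. Here 2 of the 39 genes rose, REC8 and ZYP1A, and 0 fell, against 8.74% higher and 3.99% lower over all models by edgeR. At an unadjusted p under 0.05, for which no share of all models is given here, 3 were higher and 3 lower. DESeq2 also gave 2 higher and 0 lower, against 13.4% and 7.36% of all models. The median log2 fold change was -0.14 for the 39 genes and 0.08 for all models. The shoot apex is 1 library and was assumed to vary like the others. With library totals only, the share of higher among all calls was 57.1% in place of 68.7%. Without inflorescence replicate 1 or replicate 2 no gene of any kind was called, and with rosette replicate 1 or replicate 2 left out 5 of the 39 genes were higher and 7 lower, while over all models 27.2% to 27.5% were higher and 20.4% to 20.6% lower.

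REC8 had 5.98 and 8.25 CPM in the inflorescences, against 0.215 CPM in the shoot apex, where it had 3 reads. The pooled ratio of reads was 32.9, with an exact 95% counting interval from 11.2 to 160 (adjusted p = 0.0366 by edgeR). ZYP1A had 7.30 and 5.32 CPM in the inflorescences and 1.15 CPM in the shoot apex, a log2 fold change of 2.45 ± 0.49 (SE; adjusted p = 0.0483 by edgeR). Its call was lost with RLE size factors, with library totals only, without the filter on low counts and with the replicate block, and the block also ended the call of REC8. TDM1 had 9.88 and 5.52 CPM in the inflorescences, against 1.87 CPM in the shoot apex (log2 fold change 2.04 ± 0.56, adjusted p = 0.0851 by edgeR). ZYP1B had 10.8 and 8.09 CPM in the inflorescences, against 4.74 CPM in the shoot apex (adjusted p = 0.194 by edgeR). As the division of reads between ZYP1A and ZYP1B is uncertain, the call of ZYP1A alone does not set these copies apart.

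Other genes with a role in meiosis had values in the shoot apex within or above the range of the inflorescences. ASY1 had 17.5 and 11.4 CPM in the inflorescences and 15.9 CPM in the shoot apex, with a log2 fold change of -0.14 and a 95% interval from -1.47 to 1.20. ASY3 had 16.2 and 11.2 CPM in the inflorescences and 13.8 CPM in the shoot apex, with an interval from -2.24 to 2.21. DMC1 had 31.9 and 20.1 CPM in the inflorescences and 34.2 CPM in the shoot apex, with an interval from -1.42 to 0.63. These intervals are wide, and the test does not show that the tissues were alike. The shoot apex lay above both inflorescences for 19 of the 39 genes, against 43.2% of all models, and below both for 14, against 49.7%.

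SPO11-1 was the member furthest in this direction. It had 36 and 23 reads (1.13 and 0.756 CPM) in the inflorescences and 58 reads (4.16 CPM) in the shoot apex, and its log2 fold change of -2.13 ± 0.69 (SE) did not pass (adjusted p = 0.114 by edgeR). SWI1 had 3.24 and 2.63 CPM in the inflorescences and 6.89 CPM in the shoot apex (adjusted p = 0.130 by edgeR). Flower markers were at or near 0 reads in the shoot apex, with AP1 and AG at 1 read each, PI at 0, AP3 at 4 and SEP3 at 5.

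The last comparison within *A. lyrata* set the shoot apex against the rosette. ASY1, MER3 and HEI10 rose and 0 genes fell, against 2.11% higher and 6.03% lower over all models. At an unadjusted p under 0.05, a looser cut for which no share of all models is given here, 20 of the 39 were higher and 0 lower. DESeq2 gave 10 higher and 0 lower, against 6.92% and 13.3% of all models. The median log2 fold change was 1.20 for the 39 genes and 0 for all models, and 36 of 39 values were positive, against 45% of all models. The shoot apex lay above both rosettes for 34 of the 39 genes, against 37.2% of all models. With library totals only the median of all models moved to 0.67, and 25 genes rose, against 21.5% of all models. The share of higher among all calls was 83% in place of 26%. Without inflorescence replicate 1 or replicate 2 no model at all was called, and the same held with the replicate block. Without rosette replicate 1 there were 22 genes higher and 1 lower, against 19% and 22.5% of all models, and without rosette replicate 2 there were 17 higher, against 12.3%.

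HEI10 had 4.23 CPM in the shoot apex, against 0.346 and 0.311 CPM in the rosettes, a log2 fold change of 3.66 ± 0.44 (SE; adjusted p = 0.0327 by edgeR). ASY1 had 15.9 CPM in the shoot apex, against 1.47 and 0.623 CPM in the rosettes, a log2 fold change of 3.89 ± 0.54 (adjusted p = 0.0355 by edgeR). MER3 had 9.97 CPM in the shoot apex, against 2.25 and 1.35 CPM in the rosettes, a log2 fold change of 2.46 ± 0.37 (adjusted p = 0.0391 by edgeR). Among genes that did not pass, CYCA1;2 had 8.04 CPM in the shoot apex, against 1.73 and 2.59 CPM in the rosettes (adjusted p = 0.0504 by edgeR), and MSH5 had 11.05 CPM in the shoot apex, against 2.33 and 0.934 CPM in the rosettes (adjusted p = 0.0592). REC8 had 3 reads in the shoot apex and 0 in both rosettes, at or under the floor in each, so no fold is given.

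The summed level of mitotic genes was also lowest in the rosettes. The 11 mitotic cell cycle and replication genes summed to 438 and 354 CPM in the inflorescences, 479 CPM in the apex, and 240 and 115 CPM in rosettes. All 11 had positive log2 fold changes in the inflorescence against the rosette (median 1.27) and in the shoot apex against the rosette (median 1.57). PCNA1, the replication clamp, was the only 1 of the 11 to pass in either comparison. The part of mitotic activity in the values of the meiotic genes was not tested. The anther and sporocyte list summed to 673 and 518 CPM in the inflorescences, 35.9 CPM in the apex, and 40.8 and 56.2 CPM in rosettes. Of its 8 genes, 6 rose and 1 fell in the inflorescence against the rosette, and 4 rose against the shoot apex.

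**Figure D3:**
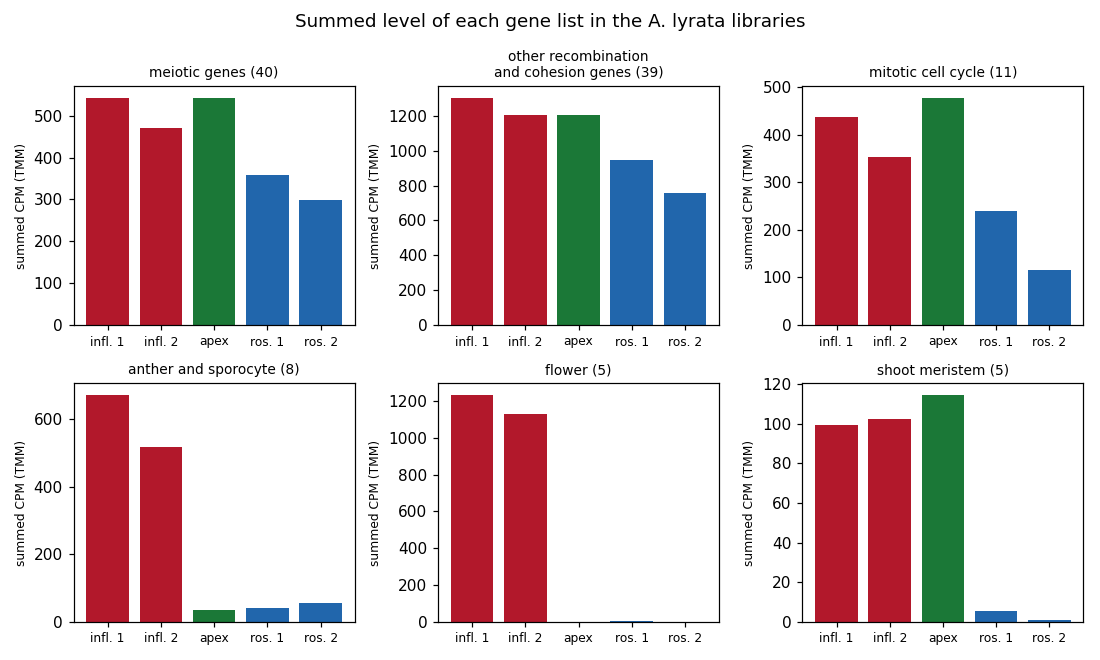
Summed level of each gene list in the 5 A. lyrata libraries, in TMM-scaled CPM, with 1 bar per library and a separate axis from 0 for each list. The meiotic genes and the mitotic genes reach 544 and 479 CPM in the shoot apex, close to the inflorescences, whereas the anther and flower lists are high in the inflorescences only.

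Among 39 other recombination and cohesion genes with a model, 7 rose and 0 fell in the inflorescence against the rosette (median log2 fold change 0.83), a share close to the 17.6% over all models. Against the shoot apex 0 were called by edgeR at an adjusted p under 0.05, against 8.74% of all models higher and 3.99% lower. At an unadjusted p under 0.05, for which no share of all models is given here, 2 were higher and 6 lower. In the shoot apex against the rosette 6 rose (median 1.38), against 2.11% of all models. The highest values against the rosette belonged to MMD1, a meiotic chromatin reader, with 48 and 74 reads in the inflorescences, against 1 and 0 reads in the rosettes (adjusted p = 0.0220 by edgeR), and 3 reads in the shoot apex. JASON had a log2 fold change of 2.88 but did not pass (adjusted p = 0.0579), and ZIP4, a scaffold of the main crossover pathway, rose with a log2 fold change of 2.57 (adjusted p = 0.0196 by edgeR). At the lower end XRCC2, RECQ4A and RAD51D had log2 fold changes of -0.14, 0.01 and 0.02.

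Rosettes of both species were set side by side as RPKM. The tables hold separate gene models, so no test was made. *A. thaliana* exon lengths were taken from TAIR10.1, whose coordinates matched those of the deposited table for 7 of the 40 genes. Both *A. lyrata* rosettes lay above both *A. thaliana* rosettes for 22 of the 38 genes with 10 or more reads in all (against 36.4% of 18495 pairs of orthologs) and below both for 5 (against 24% of pairs). The median log2 ratio of *A. lyrata* over *A. thaliana*, with 0.05 added to each mean, was 0.69 for the 38 genes and 0.15 for all pairs.

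**Figure D4:**
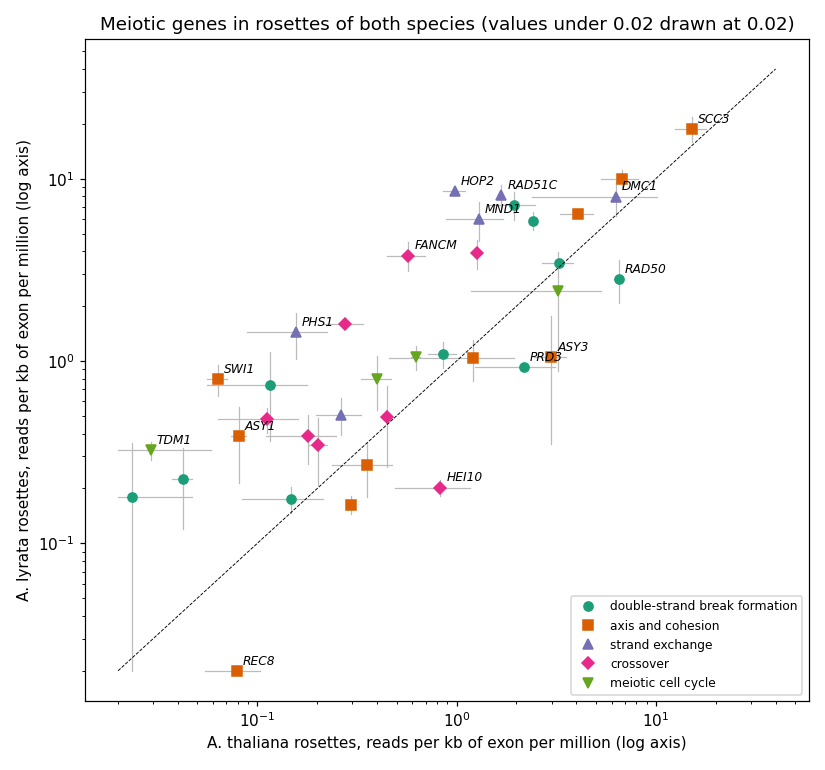
Mean level of 38 of the 40 genes in A. lyrata rosettes (vertical) and A. thaliana rosettes (horizontal), in RPKM on log axes, with grey lines joining the 2 replicates and the dashed line marking equal levels. HOP2, FANCM and PHS1 lie far above the line, and HEI10, ASY3, PRD3 and RAD50 below it.

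HOP2 had 8.77 and 8.35 RPKM in *A. lyrata* rosettes, against 1.104 and 0.851 in *A. thaliana* rosettes. FANCM had 4.47 and 3.11 in *A. lyrata*, against 0.697 and 0.448 in *A. thaliana*. PHS1 had 1.03 and 1.84 in *A. lyrata*, against 0.0886 and 0.223 in *A. thaliana*, where it rested on 2 and 4 reads. The species did not overlap for these 3 genes. RAD50 was among those lower in *A. lyrata*, with 3.58 and 2.07, against 6.88 and 6.17 in *A. thaliana*. HEI10 had 0.223 and 0.181 in *A. lyrata* (4 and 3 reads), against 1.17 and 0.491 in *A. thaliana* (42 and 14 reads). The exons used for HEI10 differ in length (1241 bp in the *A. lyrata* model and 2252 bp in TAIR10.1). They were also longer in TAIR10.1 for HOP2 (853 bp and 1020 bp), FANCM (4320 bp and 4578 bp) and PHS1 (1342 bp and 1413 bp). A longer exon length lowers the RPKM, here that of *A. thaliana*. REC8 had 0 reads in both *A. lyrata* rosettes and 2 and 3 reads in the *A. thaliana* rosettes, all at or under the floor. DMC1 had 9.76 and 6.22 in *A. lyrata* and 10.2 and 2.39 in *A. thaliana*, and the species overlapped.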

How the data were processed

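The authors aligned single-end, unstranded poly-A reads with TopHat and Bowtie to the *A. lyrata* assembly or to TAIR10. They deposited raw counts of reads per gene model, of their version-2 annotation for *A. lyrata* and of TAIR10 for *A. thaliana*. The counting tool and its rule for overlapping models are not given in the sources used here. The deposited scaled columns were not used. The start and end coordinates of the annotation came from the deposited gff.

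All 5 *A. lyrata* libraries were fitted together with edgeR 4.0.16 in R 4.3.3 (filterByExpr, TMM, glmQLFit, glmQLFTest, 1 mean per tissue, Benjamini-Hochberg over 25465 models, adjusted p under 0.05), after testing on simulated data. The fit had 2 residual and 2.32 prior degrees of freedom, and a common BCV (spread between replicates) of 0.303. SE is the absolute log2 fold change over the square root of F, and intervals are 95%. CPM are TMM-scaled, and levels between genes or species are per kb of exon without TMM. Alternatives were RLE, library totals only, DESeq2 1.42.0, no filter, the study's threshold (p under 0.01, absolute log2 fold change over 2), a replicate block and leaving out libraries. Levels and motifs were computed in Python 3.11.15 (pandas 2.3.3, scipy 1.17.1, numpy 2.4.6) and drawn with matplotlib 3.10.9. Of the 40 genes, 2 enter every count but are not reported here singly. Of other lists, up to 3 highest and lowest were named. The genes and lists were chosen with earlier results of these data known.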

Additional observations from a re-analysis of the deposited data

How the results depend on the processing

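With 2 residual degrees of freedom the calls depended on which libraries were in the fit. The number of genes higher in the inflorescence against the rosette ranged from 0 to 23 when each library was left out in turn, that against the shoot apex from 0 to 5 (lower from 0 to 7), and that in the shoot apex against the rosette from 0 to 22 (lower from 0 to 1). The counts of 0 higher genes all came from fits without an inflorescence library. Of the 12 calls against the rosette, 8 were lost under no other alternative. The others, among them PRD1, PRD3 and MLH3, were also lost under further alternatives.

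Library totals only gave 28 higher genes in the inflorescence against the rosette (38.6% of all models) and 1 against the shoot apex (7.08%). In the shoot apex against the rosette that setting gave 25 (21.5%). Against the shoot apex, RLE and no filter each gave 1 (8.4% and 6.68% of all models). In the shoot apex against the rosette, DESeq2 gave 10 (6.92% of all models) and the study's threshold 6 (1.76%). Apart from the replicate block and the fits that left out a library, the other counts stayed within 1.5 times those of the full fit. Calls over all models fell to 671 higher and 225 lower without inflorescence replicate 1, and to 732 and 344 without replicate 2, against 4479 and 4250 in the full fit of inflorescence and rosette.

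Rosettes and inflorescences share replicate numbers, but the labels name no pairing. The deviations of replicate 1 from replicate 2 correlated at 0.11 between rosettes and inflorescences over the 25465 models tested. With the replicate block, 10 genes were higher in the inflorescence against the rosette, against 13.2% of all models. Against the shoot apex 0 were higher (3.79% of all models), and 0 in the shoot apex against the rosette (0%).

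No called gene changed sign. Some members that were not called did, and each of those is given here by its log2 fold change, since all are drawn in the plot of fold changes. Of 37 genes reported singly, they were 6 in the inflorescence against the rosette, 9 against the shoot apex and 5 in the shoot apex against the rosette.

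In the inflorescence against the rosette, library totals only turned SPO11-1 to 0.22, RAD51C to 0.42 and XRCC3 to 0.37. Leaving out each library gave from -0.87 to 0.59 for SPO11-1, from -0.14 to 0.33 for PRD2, from -0.038 to 0.27 for SCC3 (-0.0047 without inflorescence replicate 1), from -0.43 to 0.082 for XRCC3 and from -0.25 to 0.36 for SHOC1 (-0.22 without inflorescence replicate 1).

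Against the shoot apex, library totals only turned SCC3 to -0.18, MUS81 to -0.11, PHS1 to -0.056, MSH4 to -0.024 and NBS1 to -0.023. RLE turned SCC3 to -0.0060 and DESeq2 to -0.0032. No filter turned PRD3 to 0.0029. The replicate block turned ASY1 to 0.24, ASY3 to 0.61, PRD3 to 0.055 and RAD50 to 0.0084. Leaving out each library gave from -0.54 to 0.078 for ASY1, from -0.37 to 0.16 for ASY3, from -0.24 to 0.092 for PRD3, from -0.15 to 0.075 for SCC3, from -0.18 to 0.33 for PHS1 and from -0.0017 to 0.24 for MSH4.

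In the shoot apex against the rosette, library totals only turned SDS to 0.76, MSH4 to 0.75 and PRD2 to 0.14 (-0.66 in the full fit). RLE turned SDS to 0.036 and MSH4 to 0.0039, DESeq2 turned them to 0.040 and 0.0039, and the replicate block turned SCC3 to -0.046. Leaving out each library gave from -0.37 to 0.47 for SDS, from -0.10 to 0.014 for MSH4, from -0.064 to 0.24 for SCC3 and from -0.024 to 0.58 for SHOC1. The cause was not tested.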

Other observations

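Rosette replicates were compared in these genes. In *A. lyrata*, replicate 1 exceeded replicate 2 for 27 of 36 genes with 10 or more reads in both together, against 13529 of 21869 models. The median log2 ratio was 0.48, against 0.16 over these models. Replicate 1 was higher by more than 1 on the log2 scale for 6 genes and lower by as much for 0 (16.7% beyond 1, against 19.9% of all models). In *A. thaliana*, replicate 1 was higher for 23 of 32 genes, against 7302 of 19313 genes (median 0.46, against -0.18). It was higher by more than 1 for 7 genes, and lower by more than 1 for 1 gene (25.0% beyond 1, against 18.5% of all genes). OSD1 had 73 and 15 reads in the *A. lyrata* rosettes and 118 and 21 in the *A. thaliana* rosettes. ASY3 had 71 and 13 reads in the *A. lyrata* rosettes, and DMC1 had 252 and 47 in the *A. thaliana* rosettes. In the inflorescences 1 of 40 genes, SPO11-2, lay beyond 1 on the log2 scale, against 6.99% of all models.

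The summed level of mitotic genes was higher in replicate 1 in both species. The 11 mitotic genes summed, per library total without TMM, to 192 and 83.4 CPM in the *A. lyrata* rosettes and, in *A. thaliana*, to 214 and 97.1 CPM. The 5 meristem markers summed in the same way to 4.36 and 0.750 CPM in the *A. lyrata* rosettes. Of these, STM and KNAT1 had 10 and 46 reads in *A. lyrata* rosette replicate 1, and 0 reads in replicate 2. CUC2 had 7 reads in replicate 1 and 10 in replicate 2, and WUS and CLV3 had 0 in both. In *A. thaliana* the sum of the 5 meristem markers went the other way, with 5.94 and 6.95 CPM. The part of these genes in the values of the meiotic genes was not tested.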
